A study of Sus scrofa with 24 samples.

Results

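The effect of an atherogenic diet was examined in pigs that were all taking the same supplement, a grape extract enriched with resveratrol. The comparison set 4 animals on the atherogenic diet with the enriched extract (AD-GE-RES) against 4 animals on standard commercial chow with the enriched extract (CT-GE-RES). These 8 arrays were chosen by their diet label from the 24 arrays of the study, which covered 6 diets with 4 animals each, 2 females and 2 males, after 4 months on the diet. The atherogenic diet took its fat from coconut oil (10%) and beef tallow (5.5%), with cholic acid added at 1%. Both groups received 1 g of grape extract, carrying the equivalent of 18 mg of resveratrol, for each 70 kg of body weight, so no animal in the comparison was free of the supplement. The animals without any supplement, on the same atherogenic diet (AD) or on chow (CT), were used for comparison, and the remaining groups took the atherogenic diet with plain grape extract (AD-GE) or with resveratrol (AD-RES). RNA came from peripheral blood mononuclear cells, isolated from heparinised blood on a density gradient, and each animal's RNA was hybridised to an Affymetrix porcine array. All values are log2 intensities, and all differences are AD-GE-RES minus CT-GE-RES on that scale unless another pair is named, so that 1 unit is a 2-fold difference.

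Mononuclear cells of the blood are a mixture of T cells, B cells, natural killer cells and monocytes. They meet dietary lipids in the circulation, and monocytes that enter the arterial wall and take up cholesterol become the foam cells of atherosclerotic lesions. Cholic acid is a bile acid that helps the gut absorb fat and cholesterol. Resveratrol is a stilbene of grape skin studied for effects on sirtuins, on antioxidant enzymes and on inflammatory signalling through NF-kB.

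Markers of the labelled cell mixture were present on the arrays. Probe sets for 14 of 23 T cell genes, 9 of 24 cytotoxic and NK cell genes, 8 of 24 B cell genes and 22 of 28 monocyte genes passed the filter on dim probe sets. So did 16 of 26 platelet genes, 11 of 23 genes of neutrophils and granules and 11 of 26 erythroid genes, which belong to other blood cells. A measure of RNA quality and labelling was uneven. The 3'/5' ratio of 3 control transcripts, which increases when RNA is degraded or labelled incompletely, was 3.40, 4.08, 1.67 and 1.62 (log2) in the AD-GE-RES animals, against 1.5, 2.69, 3.21 and 1.40 in the CT-GE-RES animals. The group means, 2.69 ± 1.24 in AD-GE-RES and 2.20 ± 0.89 in CT-GE-RES (SD, n = 4 each), did not separate in a two-sided exact permutation test (p = 0.486, with 0.0286 the smallest p possible), and the difference of 0.49 ran from 0.028 (without AD-GE-RES animal 2) to 0.85 (without AD-GE-RES animal 4) with 1 animal left out. In females the ratio was higher by 1.64 in AD-GE-RES, and in males its difference was -0.66. The same ratio over 8 pairs of spiked transcripts was 1.98, 2.38, 1.47 and 1.30 in AD-GE-RES, against 1.51, 1.89, 1.91 and 1.19 in CT-GE-RES. Within each group it put the animals in the same order. Whether RNA quality or labelling lay behind the ratio of the control transcripts was not tested. What lay behind that of the spiked transcripts, which are added and are not the animal's own RNA, was not tested either. Animals are numbered 1 to 4 in each group in the order of deposit, with 1 and 2 female and 3 and 4 male. AD-GE-RES animal 1 had the highest mean of the monocyte, dendritic cell and inflammatory gene lists among the 8 animals, and AD-GE-RES animal 2 the lowest platelet mean.

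None of the 17999 probe sets passed the test of AD-GE-RES against CT-GE-RES (limma with sex in the fit over all 24 arrays, Benjamini-Hochberg adjustment, threshold 0.05). The number called was 0 (0%), and the smallest adjusted p was 1.00. An unadjusted p under 0.05 was reached by 810 probe sets (4.5%), of which 374 were higher (2.08%) and 436 lower (2.42%) in AD-GE-RES, where a share of 0.05 alone would give 899.95. The 4 animals of each group did not overlap for 438 probe sets (2.43%), 246 of them higher (1.37%) and 192 lower (1.07%) in AD-GE-RES. The balance of directions moved with the scaling: 46.17% of the 810 probe sets were higher in AD-GE-RES with the values as deposited, and 58.51% of 817 were with each array centred on its median. Differences were mostly small as well: the 95% interval lay wholly within a 2-fold difference in either direction for 93.6% of probe sets, and the median standard error was 0.154. How narrow these intervals can be depends on the number of arrays. In simulated data of the same design, 50 probe sets each were given differences of 1.41-, 2-, 2.83- and 4-fold. Of those given a 1.41-fold difference 32% were called, against 90% of those given a 2-fold difference. The simulated residuals were independent, and planting many large differences makes the adjustment less strict. These shares are therefore not the power behind the 0 calls on the real arrays. Nothing in the labels says more about the replicates than that each array was a separate animal. Of the probe sets tested, 8540 carried a single gene symbol and stood for 6033 genes, each taken at its brightest probe set. Among these genes 42.8% were higher in AD-GE-RES, and the median difference was -0.03. An unadjusted p under 0.05 was reached by 337 genes (5.59%), 95 on the higher side (1.57%) and 242 on the lower side (4.01%). Groups that did not overlap were seen for 65 genes on the higher side (1.08%) and 121 on the lower side (2.01%). All gene groups below are read against those shares, since no single gene in them was called.

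The proteasome, the barrel-shaped protease that degrades ubiquitin-tagged proteins, gave the most one-sided group. Of 34 measured subunits and assembly factors 33 were lower in AD-GE-RES, with a median difference of -0.19. On the lower side 9 had an unadjusted p under 0.05, and 10 had all AD-GE-RES animals below all CT-GE-RES animals, where 2.01% of all genes did. PSMA5, an alpha-ring subunit of the 20S core, stood at 9.07, 8.99, 8.87 and 9.03 in AD-GE-RES, against 9.48, 9.38, 9.56 and 9.33 in CT-GE-RES. The groups were separated by more than the range within either of them, with a difference of -0.45 (SE 0.11, unadjusted p = 0.000485, adjusted p = 1.00). PSMB2, a beta-ring subunit, stood at 10.29, 10.61, 10.35 and 10.65 in AD-GE-RES, against 10.85, 10.93, 10.98 and 10.77 in CT-GE-RES (difference -0.40, SE 0.12). PSME3, the gamma subunit of the PA28 activator, stood at 5.92, 5.70, 5.85 and 6.10 in AD-GE-RES, against 6.90, 6.42, 6.25 and 6.33 in CT-GE-RES (difference -0.58, SE 0.19). PSMB10, a catalytic subunit of the interferon-inducible immunoproteasome that was listed under MHC class I presentation, stood at 8.99, 9.29, 9.07 and 9.21 in AD-GE-RES, against 9.61, 9.37, 9.73 and 9.48 in CT-GE-RES (difference -0.40, SE 0.11). None of these 4 genes had an AD-GE-RES animal within the CT-GE-RES range.

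The other core and regulatory subunits differed by less. Non-overlapping groups were also seen for the core subunits PSMB4 (-0.29), PSMA2 (-0.26), PSMB7 (-0.23), PSMB6 (-0.20), PSMA3 (-0.19) and PSMB5 (-0.19) and for the assembly chaperone PSMG1 (-0.36). Among the ATPases of the 19S cap that unfold substrates, PSMC1 differed by -0.35, PSMC2 by -0.21 and PSMC3 by -0.05, all with overlapping animals. The 1 member on the higher side was PSMD12, a lid subunit, at 0.15 (unadjusted p = 0.36). The mean of the list, centred on all 24 arrays, lay between -0.14 and 0.08 in AD-GE-RES and between 0.11 and 0.27 in CT-GE-RES, with no overlap. AD-GE-RES averaged -0.02 ± 0.09, CT-GE-RES 0.18 ± 0.08, and the other 4 groups lay between -0.10 and 0.03 (n = 4 each), so that the CT-GE-RES group was the one that stood away from the rest. In the animals without supplement the list pointed elsewhere, with 25 of 34 members higher in AD than in CT and a median difference of 0.05. When the fit also held the 3'/5' ratio, 30 of 34 members were lower (median -0.17), and without both AD-GE-RES females, whose ratios were high, 28 of 34 were lower (median -0.12) and 3 had an unadjusted p under 0.05.

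**Figure D1:**
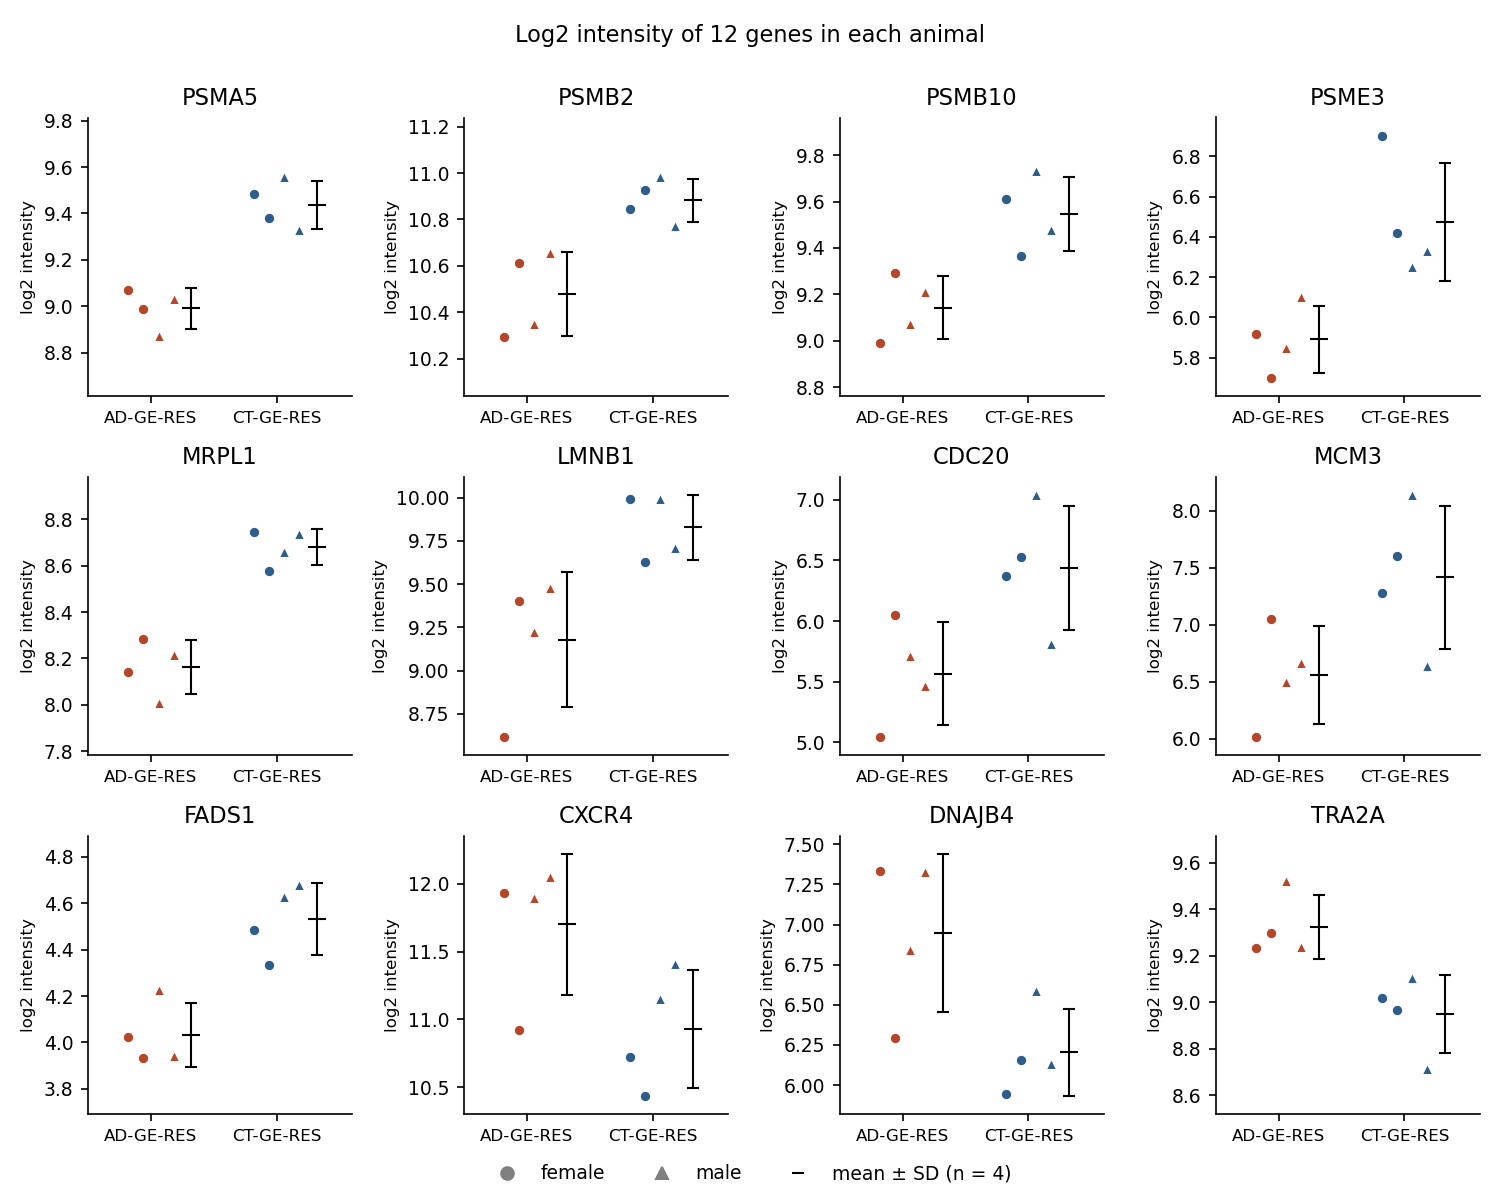
Log2 intensity of 12 genes in each of the 8 animals (vertical axes, log2), with AD-GE-RES in red on the left and CT-GE-RES in blue on the right of each panel. Circles are females, triangles males, and black bars the mean ± SD of 4 animals. The groups do not overlap for PSMA5, PSMB2, PSMB10, PSME3, MRPL1, LMNB1, FADS1 and TRA2A, and overlap for CDC20, MCM3, CXCR4 and DNAJB4.

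Mitochondrial ribosomal proteins, which build the ribosome that translates the genes of mitochondrial DNA, leaned the same way. Of 58 measured members 50 were lower in AD-GE-RES, with a median difference of -0.15, and 10 had an unadjusted p under 0.05, all on the lower side. MRPL1, a protein of the large subunit, stood at 8.14, 8.28, 8.01 and 8.22 in AD-GE-RES, against 8.74, 8.58, 8.66 and 8.74 in CT-GE-RES (difference -0.52, SE 0.16). MRPS11, of the small subunit, stood at 7.85, 7.73, 7.79 and 7.80 in AD-GE-RES, against 8.17, 7.93, 8.09 and 8.13 in CT-GE-RES (difference -0.29, SE 0.10). Neither gene had overlapping groups. Without overlap on the lower side were 3 of the 58 members. This is a larger share than the 2.01% of all genes, though it rests on few members. MRPL19 differed by -0.43 (SE 0.15), with AD-GE-RES animal 2 inside the CT-GE-RES range. The list mean lay between -0.04 and 0.04 in AD-GE-RES and between 0.06 and 0.25 in CT-GE-RES. AD-GE-RES averaged 0.01 ± 0.03 and CT-GE-RES 0.16 ± 0.09, while the other 4 groups lay between -0.10 and 0.01. Between AD and CT, 28 of the 58 were higher in AD.

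Other mitochondrial and translation genes were closer to the background. Of 58 genes of oxidative phosphorylation 43 were lower, by a median of only -0.05, and 3 had an unadjusted p under 0.05. These were the complex I subunits NDUFV2 (-0.31), NDUFS3 (-0.30) and NDUFA9 (-0.28). NDUFV2 had further probe sets at 0.06 and -0.00, and those of NDUFS3 were at -0.38 and -0.34. ATPAF1, an assembly factor of the ATP synthase, stood at 6.05, 6.64, 6.42 and 6.28 in AD-GE-RES, against 6.68, 6.82, 7.17 and 6.74 in CT-GE-RES (difference -0.50, SE 0.14). TMEM126B, an assembly factor of complex I, stood at 6.60, 7.37, 7.47 and 7.33 in AD-GE-RES, against 7.76, 7.80, 8.23 and 8.02 in CT-GE-RES (difference -0.76, SE 0.22). The groups did not overlap for either assembly factor. Translation factors were lower in 28 of 39 members (median -0.07), among them EIF2S1, the alpha subunit of the initiation factor eIF2, at -0.39 (SE 0.13). Cytosolic ribosomal proteins went the other way in number, with 43 of 61 higher in AD-GE-RES, but by a median of 0.02.

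**Figure D2:**
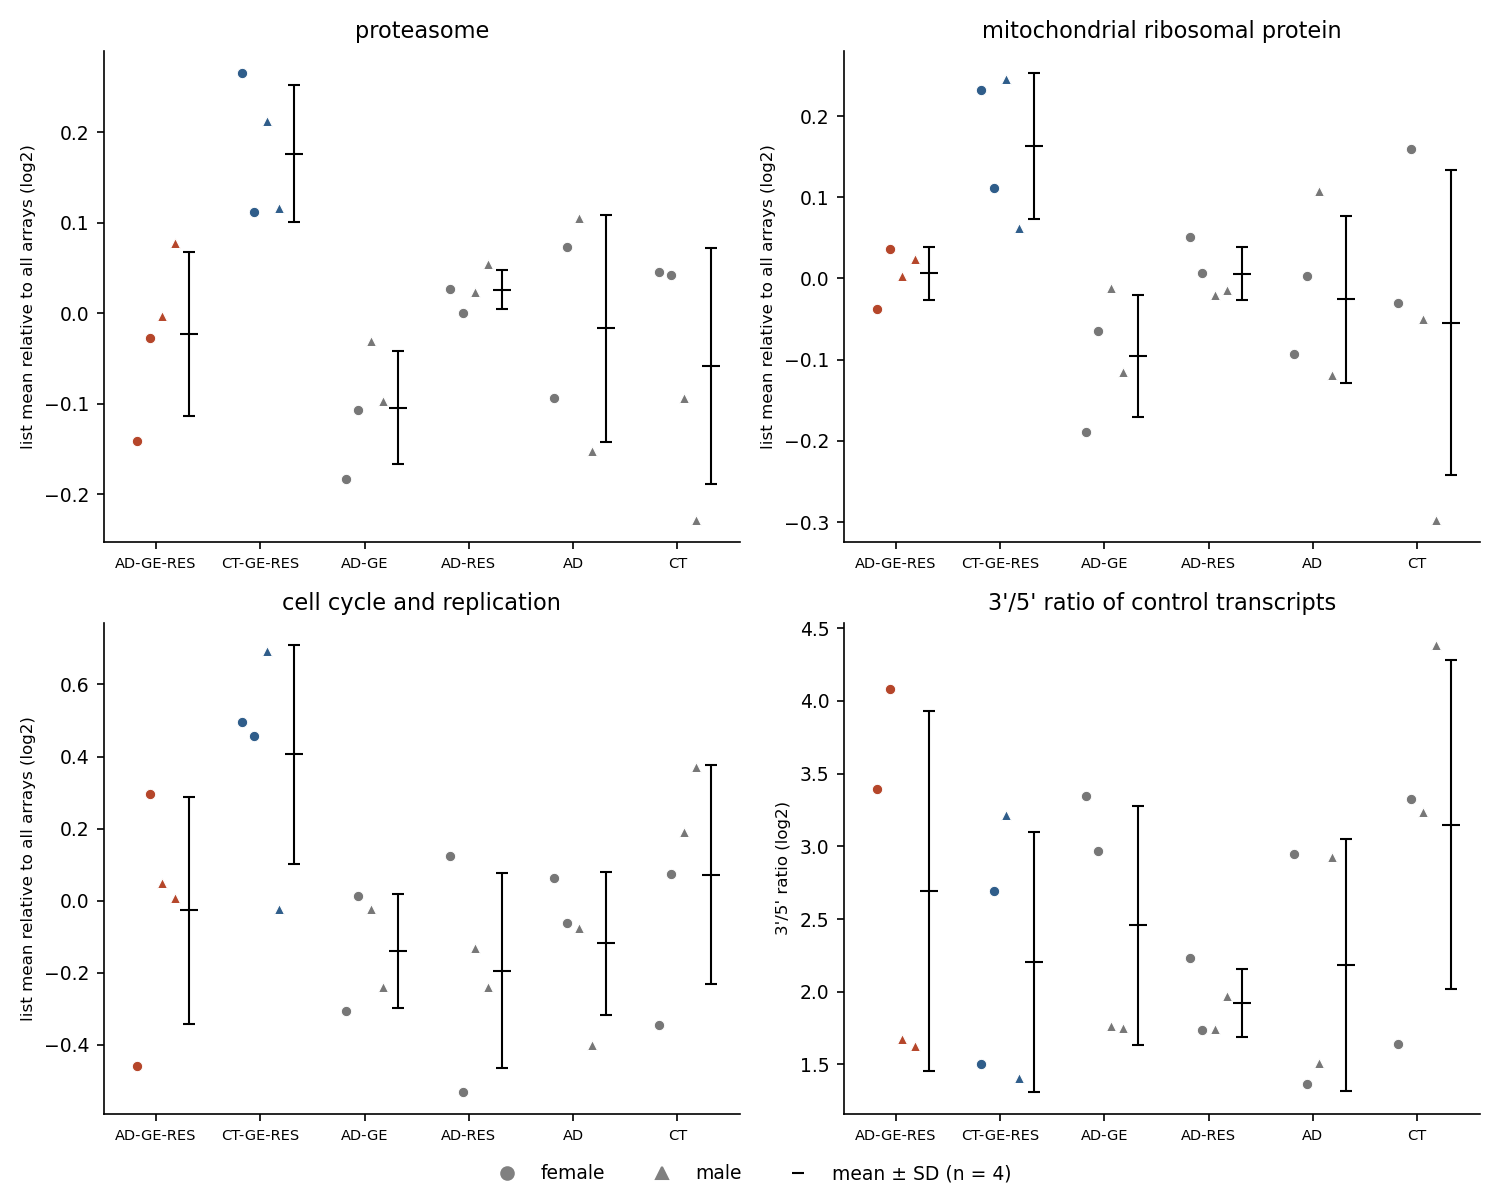
Mean of the proteasome, mitochondrial ribosomal and cell cycle gene lists in each animal (vertical axis, log2, relative to all 24 arrays) and the 3'/5' ratio of control transcripts (log2) in all 6 groups. Circles are females, triangles males, and black bars the mean ± SD of 4 animals. CT-GE-RES has the highest mean of the 6 groups for each of the 3 lists, and the 3'/5' ratio overlaps between all groups.

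Genes of the cell cycle and DNA replication had larger differences and more spread. In AD-GE-RES 30 of 34 were lower, with a median of -0.41, and 12 had an unadjusted p under 0.05, all lower, but only CDK2 (-0.80), the kinase of the G1/S transition, had groups that did not overlap. CDC20, the activator of the anaphase-promoting complex, stood at 5.05, 6.05, 5.71 and 5.47 in AD-GE-RES, against 6.37, 6.53, 7.04 and 5.81 in CT-GE-RES (difference -0.87, SE 0.28). MCM3, a subunit of the replicative helicase, stood at 6.01, 7.05, 6.50 and 6.67 in AD-GE-RES, against 7.28, 7.61, 8.14 and 6.64 in CT-GE-RES (difference -0.86, SE 0.29). CT-GE-RES animal 4 was the low animal of its group for both. The mitotic cyclins CCNB1 (-1.05) and CCNB2 (-0.96), the origin-recognition subunit ORC1 (-0.88) and the DNA polymerase epsilon subunit POLE2 (-0.68, with its other probe set also at -0.68) were lower in mean by similar amounts, whereas the 4 members on the higher side (CKS2, GMNN, MCM4 and CDC25B) lay between 0.01 and 0.08.

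Counts in this group depended on single animals. The number of members with an unadjusted p under 0.05 was 3 without AD-GE-RES animal 1 or without CT-GE-RES animal 3, and 19 without AD-GE-RES animal 2 or without CT-GE-RES animal 4. The list mean lay between -0.46 and 0.30 in AD-GE-RES and between -0.02 and 0.69 in CT-GE-RES. Between AD and CT the group also leaned lower, with 9 of 34 members higher in AD and a median of -0.21. LMNB1, the nuclear lamina protein lamin B1, had the smallest unadjusted p of the named genes in this comparison. It stood at 8.62, 9.40, 9.23 and 9.48 in AD-GE-RES, against 9.99, 9.63, 9.99 and 9.71 in CT-GE-RES, without overlap (difference -0.65, SE 0.15, unadjusted p = 0.000426, adjusted p = 1.00). SKA1, a protein of the kinetochore-microtubule interface, stood at 3.21, 5.14, 3.95 and 3.56 in AD-GE-RES, against 5.77, 5.41, 6.12 and 4.51 in CT-GE-RES (difference -1.48, SE 0.42). HAUS1, an augmin subunit of the mitotic spindle, differed by -0.47 (SE 0.14). Of 24 DNA repair genes 17 were lower (median -0.10), with FANCD2 of the Fanconi anaemia pathway at -0.53 and RPA3, a subunit of the single-strand binding protein RPA, at -0.39.

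Genes of cholesterol and fatty acid handling, the pathways nearest to the diet itself, showed small differences. Of 15 measured genes of sterol synthesis and uptake 12 were lower in AD-GE-RES (median -0.15). FDFT1, squalene synthase, stood at 8.02, 8.49, 7.81 and 8.16 in AD-GE-RES, against 8.30, 8.49, 8.96 and 8.18 in CT-GE-RES (difference -0.36, SE 0.15). SQLE, squalene epoxidase, differed by -0.43 (SE 0.23) and HMGCS1, the cytosolic HMG-CoA synthase, by -0.32 (SE 0.26). HMGCS1 was at 0.29 in females and -0.94 in males. INSIG1, which retains the SREBP complex in the endoplasmic reticulum when sterol is plentiful, stood at 10.60, 9.19, 9.16 and 9.98 in AD-GE-RES, against 8.81, 8.73, 9.10 and 9.70 in CT-GE-RES (difference 0.65, SE 0.29), with the highest value in animal 1.

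Among genes of cholesterol efflux and targets of the sterol sensor LXR, 8 of 12 were lower, by a median of -0.05. ABCA1, the transporter that loads cholesterol onto apolipoprotein A-I, stood at 7.44, 6.77, 6.25 and 7.24 in AD-GE-RES, against 5.92, 6.93, 6.63 and 6.25 in CT-GE-RES. The animals overlapped, and the difference of 0.50 (SE 0.31) did not pass. MYLIP, a ubiquitin ligase and LXR target, stood at 10.81, 10.20, 10.59 and 10.63 in AD-GE-RES, against 10.15, 10.10, 9.79 and 10.00 in CT-GE-RES, without overlap (difference 0.55, SE 0.26). FADS1, the delta-5 desaturase of polyunsaturated fatty acids, stood at 4.03, 3.93, 4.23 and 3.94 in AD-GE-RES, against 4.49, 4.33, 4.63 and 4.68 in CT-GE-RES, again without overlap (difference -0.50, SE 0.14), but close to the filter limit of 3.57. SCD, the stearoyl-CoA desaturase, differed by -0.30 (SE 0.14). FABP3, a fatty acid binding protein, stood at 7.21, 8.57, 7.03 and 7.34 in AD-GE-RES, against 8.60, 8.50, 9.01 and 7.47 in CT-GE-RES (difference -0.86, SE 0.36). Over the whole list of fatty acid oxidation, FABP3 included, 10 of 25 members were higher and the median was -0.03. Nuclear receptors for lipids, bile acids and steroids were split 6 to 6 with a median of 0.04.

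Of the pathways studied for resveratrol, the sirtuin group was close to the background. Of 19 genes of the sirtuin, AMPK and FOXO group 9 were higher and 10 lower (median -0.01), and none had an unadjusted p under 0.05. Its lowest members were the NAD+ synthesis enzymes NMNAT1 (-0.32) and NAMPT (-0.24). Antioxidant genes and targets of the transcription factor NRF2 were lower in 23 of 31 members (median -0.12). NQO1, a quinone reductase, differed by -0.66 (unadjusted p = 0.22), GSR, glutathione reductase, by -0.27 (SE 0.12), and HMOX1, haem oxygenase 1, by 0.05 (SE 0.30). SOD2, the mitochondrial superoxide dismutase, stood at 11.39, 10.58, 10.59 and 10.46 in AD-GE-RES, against 10.48, 10.45, 10.19 and 10.98 in CT-GE-RES (difference 0.23, SE 0.20).

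**Figure D3:**
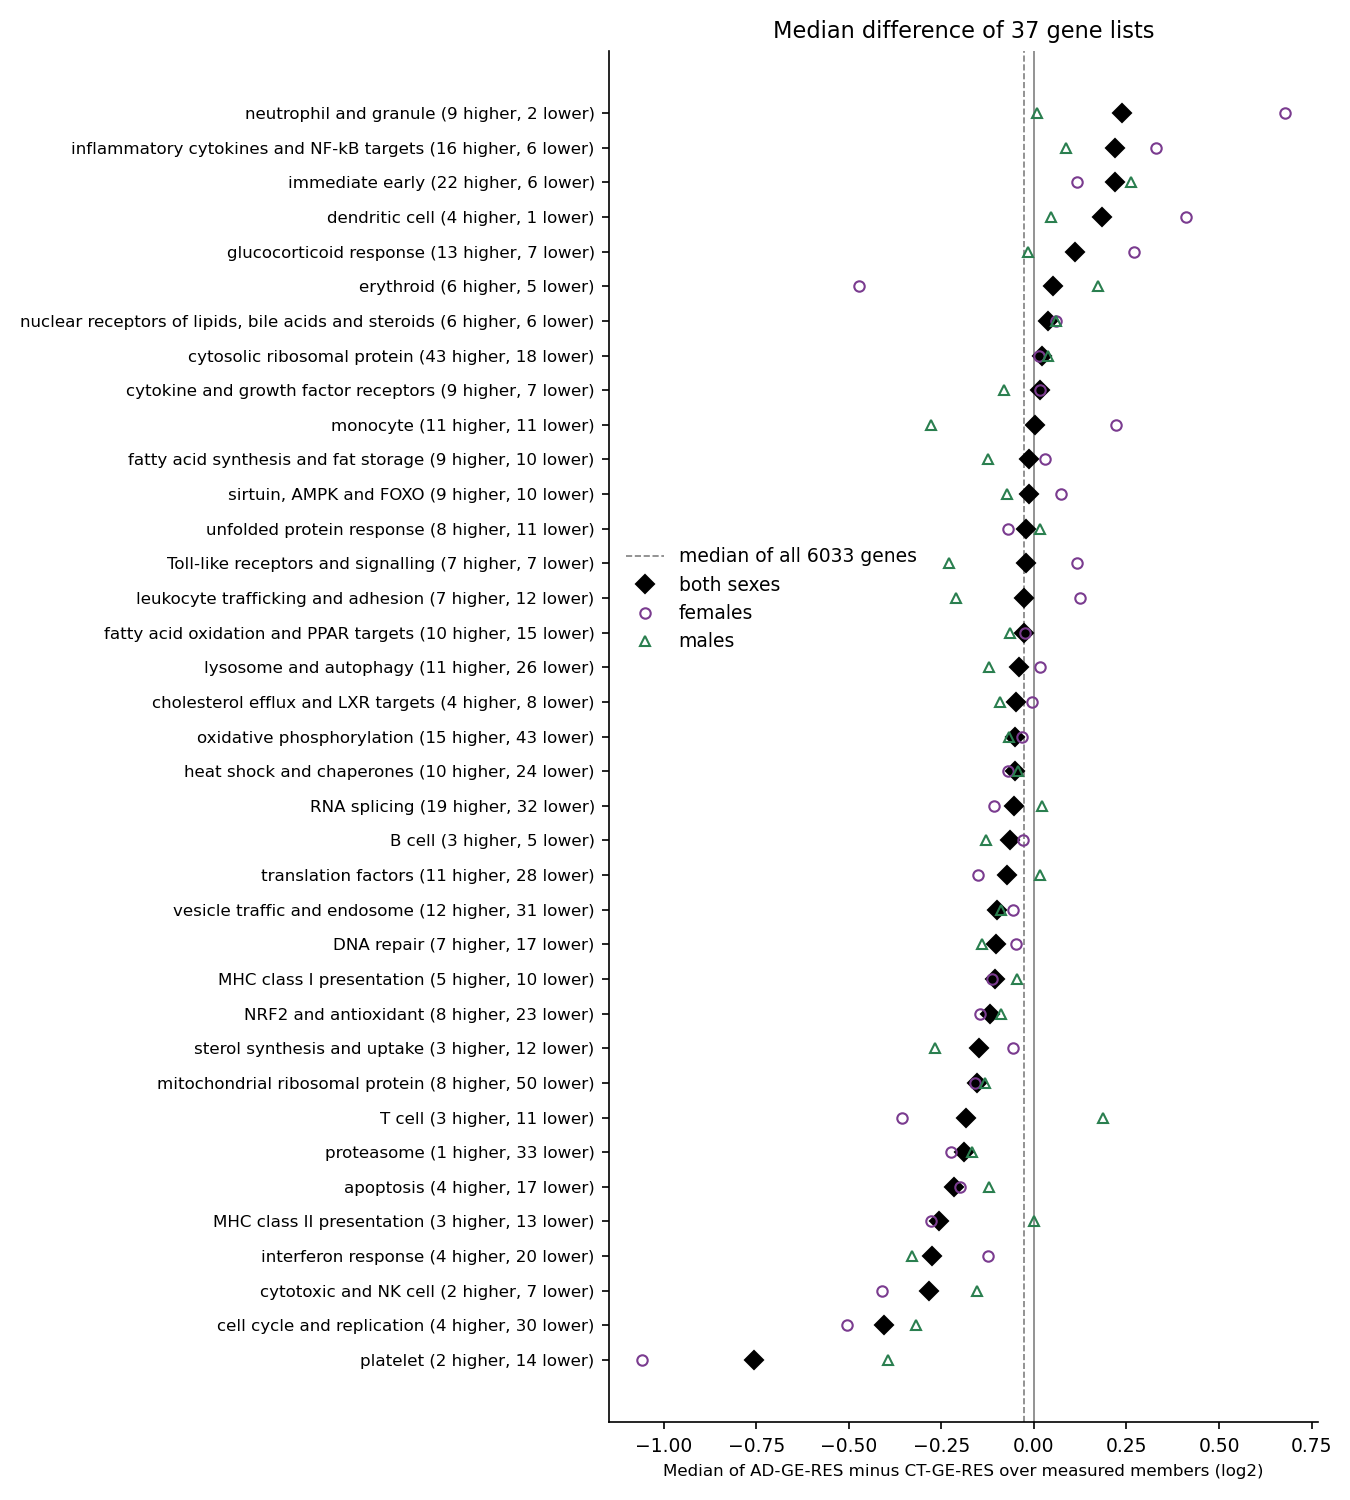
Median difference of the measured members of 37 gene lists (horizontal axis, log2, AD-GE-RES minus CT-GE-RES), with the number of members higher and lower in AD-GE-RES in each label. Diamonds are both sexes together, circles females, triangles males, and the dashed line the median of all 6033 genes at -0.03. The platelet list is lowest at -0.76, and the female and male medians lie close together for the proteasome and apart for the T cell, monocyte and erythroid lists.

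Immediate early genes, transcription factors and regulators that cells switch on within minutes of a stimulus, leaned higher in AD-GE-RES. Of 28 members 22 were higher, by a median of 0.22, and 4 had an unadjusted p under 0.05, namely the orphan nuclear receptor NR4A3 (1.38), SOCS1 (0.70), KLF10 (0.62) and GADD45B (0.53). SOCS1, an inhibitor of cytokine signalling through JAK kinases, stood at 6.55, 6.17, 6.57 and 6.36 in AD-GE-RES, against 5.38, 4.90, 6.05 and 6.54 in CT-GE-RES (difference 0.70, SE 0.23). Its other probe sets were at 0.25 and 0.13. The classical members FOS (-0.19) and EGR1 (-0.22) were on the other side. Without AD-GE-RES animal 1, a female, the list had 17 of 28 members higher and a median of 0.06. By sex, 23 of 28 were higher in males (median 0.26) and 18 of 28 in females (median 0.12).

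The inflammatory list leaned higher too, but not without AD-GE-RES animal 1. Of 22 cytokines, chemokines and NF-kB targets 16 were higher in AD-GE-RES (median 0.22), and without that animal only 9 of 22 were (median -0.03). In males 13 of 22 were higher (median 0.09), and in females 17 of 22 (median 0.33). CXCL8, the neutrophil chemoattractant interleukin 8, stood at 8.97, 5.24, 5.67 and 7.23 in AD-GE-RES, against 5.41, 5.02, 4.24 and 6.87 in CT-GE-RES. That difference of 1.39 (SE 0.91) was the largest of the 6033 genes on the higher side and lay within the spread between animals. CCL4, a chemokine for T cells and monocytes, stood at 10.77, 8.23, 8.83 and 8.87 in AD-GE-RES, against 8.13, 8.26, 8.52 and 8.84 in CT-GE-RES (difference 0.74, SE 0.39). IL1B differed by 0.50 (SE 0.55) and TNF by 0.21 (SE 0.30). NFKBIA, the inhibitor that holds NF-kB in the cytoplasm, stood at 12.19, 10.85, 11.61 and 11.48 in AD-GE-RES, against 11.12, 10.81, 10.30 and 11.28 in CT-GE-RES (difference 0.66, SE 0.24).

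CXCR4, the receptor for the chemokine CXCL12 that guides leukocyte homing, stood at 11.93, 10.93, 11.90 and 12.05 in AD-GE-RES, against 10.72, 10.44, 11.15 and 11.41 in CT-GE-RES. Apart from AD-GE-RES animal 2, every AD-GE-RES animal was above every CT-GE-RES animal, and the difference was 0.77 (SE 0.21, unadjusted p = 0.00143, adjusted p = 1.00). CXCR4 was also 1 of 5 members of the glucocorticoid response list with an unadjusted p under 0.05, all of them higher. The others were the transcription factor KLF9 (0.82, with a dim further probe set at 0.06), NFKBIA, the clock gene PER1 (0.54) and the kinase SGK1 (0.48). Over that list 13 of 20 members were higher (median 0.11), with 16 of 20 in females (median 0.27) and 10 of 20 in males (median -0.02). The list mean was 0.35, -0.19, -0.05 and 0.005 in AD-GE-RES, against -0.22, -0.24, -0.24 and 0.19 in CT-GE-RES. Animal 1 was the high one in AD-GE-RES and animal 4 in CT-GE-RES. KLF9 differed by 1.41 in females and 0.23 in males. FKBP5, a co-chaperone of the glucocorticoid receptor and a standard target of it, stood at -0.16 (SE 0.23), with a further probe set at -0.08. PMAIP1, which encodes the BH3-only protein NOXA, stood at 8.72, 7.59, 9.04 and 9.51 in AD-GE-RES, against 7.91, 6.93, 7.76 and 8.01 in CT-GE-RES (difference 1.06, SE 0.40). It was the highest of the 4 members on the higher side of the apoptosis list, where 17 of 21 members were lower (median -0.22), among them the inflammasome protease CASP1 (-0.71, SE 0.33), the mitochondrial nuclease ENDOG (-0.37, SE 0.14) and AIFM1 (-0.24, SE 0.11).

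Interferon-response genes, which cells use against viruses, were lower in 20 of 24 members (median -0.28), 2 of them with an unadjusted p under 0.05. GBP1, an interferon-induced GTPase, stood at 9.82, 11.24, 10.48 and 10.69 in AD-GE-RES, against 11.02, 11.07, 11.39 and 11.15 in CT-GE-RES (difference -0.60, SE 0.21), and its other probe sets were at -0.34 and -0.96. GBP2 differed by -0.38 (SE 0.17). OAS1, the oligoadenylate synthetase, had the largest gap of the list at -1.49, and the groups did not overlap, yet its unadjusted p was 0.13. The list mean was -0.07, -0.39, -0.15 and -0.22 in AD-GE-RES, against 0.01, -0.04, 0.03 and 0.42 in CT-GE-RES. The groups did not overlap, with or without CT-GE-RES animal 4, which was the highest; without it the median difference of the members was -0.17. ISG15 (0.15), MX2 (0.10) and PML (0.08) lay on the other side.

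Lymphocyte and antigen-presentation genes leaned lower, unevenly between the sexes. In bulk RNA, fewer cells of a type and less RNA per cell cannot be told apart. T cell genes were lower in 11 of 14 members with a median of -0.18, which was -0.36 in females and 0.19 in males. CTLA4, the inhibitory receptor of activated and regulatory T cells, stood at 3.94, 3.88, 4.11 and 3.97 in AD-GE-RES, against 5.24, 4.77, 4.25 and 4.06 in CT-GE-RES (difference -0.60, SE 0.19), so that the AD-GE-RES values were all near the dim end of the scale. CD2 (-0.70) and CD3D (-0.56) had larger gaps than CD3E (-0.14) and CD4 (-0.04). GATA3 was the highest of the 3 members on the higher side, at 0.32 (SE 0.21), with further probe sets at 0.17, 0.41 and 0.09. Cytotoxic and NK cell genes were lower in 7 of 9 members (median -0.28). IFNG, interferon gamma, stood at 7.19, 6.32, 6.66 and 6.77 in AD-GE-RES, against 7.58, 7.60, 7.81 and 6.52 in CT-GE-RES (difference -0.64, SE 0.29). Without both AD-GE-RES females, whose 3'/5' ratios were the highest of the 8, the median of this list was 0.01. MHC class II genes were lower in 13 of 16 members (median -0.26, and -0.00 in males), with SLA-DRA at -0.71 and the invariant chain CD74 at -0.32.

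B cell genes were split, with 5 of 8 lower and a median of -0.07. CD180, a Toll-like receptor homologue of B cells, stood at 5.10, 5.54, 4.96 and 4.89 in AD-GE-RES, against 5.48, 5.70, 5.74 and 5.97 in CT-GE-RES (difference -0.60, SE 0.18). CD79B of the B cell receptor was at 0.08. CCR9, a gut-homing receptor of lymphocytes, stood at 5.57, 7.35, 6.91 and 6.68 in AD-GE-RES, against 7.79, 7.67, 7.49 and 6.74 in CT-GE-RES (difference -0.79, SE 0.31). Monocyte genes had 11 of 22 members on each side and a median of 0.00, with females at 0.22 and males at -0.28. CEBPB, a transcription factor of monocytes, differed by 0.51 (SE 0.24) and CD14 by -0.20 (SE 0.77), with a further CD14 probe set at 0.15. CD83, a surface marker of activated dendritic cells, stood at 11.55, 8.15, 8.58 and 8.65 in AD-GE-RES, against 8.07, 8.03, 7.80 and 8.0 in CT-GE-RES. The groups did not overlap, with AD-GE-RES animal 1 far above the other 3, and the difference was 1.26 (SE 0.58), with a further probe set at 0.54.

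Platelet genes had the largest median difference of the 37 lists. In AD-GE-RES 14 of 16 were lower, by a median of -0.76, and none of these 14 had an unadjusted p under 0.05. The list mean was 0.64, -1.02, -0.55 and 0.10 in AD-GE-RES, against 0.82, 0.67, -0.29 and 0.56 in CT-GE-RES. The range within AD-GE-RES was wider than the gap between the groups, and the median was -0.49 without AD-GE-RES animal 2. Among its members, PPBP, the platelet chemokine precursor, differed by -1.16, the integrin subunit ITGB3 by -1.08 and ITGA2B by -0.88. The same list was lower in AD than in CT, with 2 of 16 members higher and a median of -0.57. THBS1, thrombospondin 1, which monocytes also make, stood at 10.78, 9.29, 8.72 and 10.00 in AD-GE-RES, against 9.24, 8.94, 8.37 and 8.45 in CT-GE-RES (difference 0.94, SE 0.36), with further probe sets at 0.16 and 0.68. Genes of neutrophils and granules were higher in 9 of 11 members (median 0.24, with females at 0.68 and males at 0.01), and erythroid genes were split 6 to 5. How far the makeup of the cell samples entered the other gene groups was not tested beyond a fit that held the monocyte, platelet and erythroid means, in which the proteasome list had 33 of 34 members lower (median -0.19) and the cell cycle list 30 of 34 (median -0.40).

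**Figure D4:**
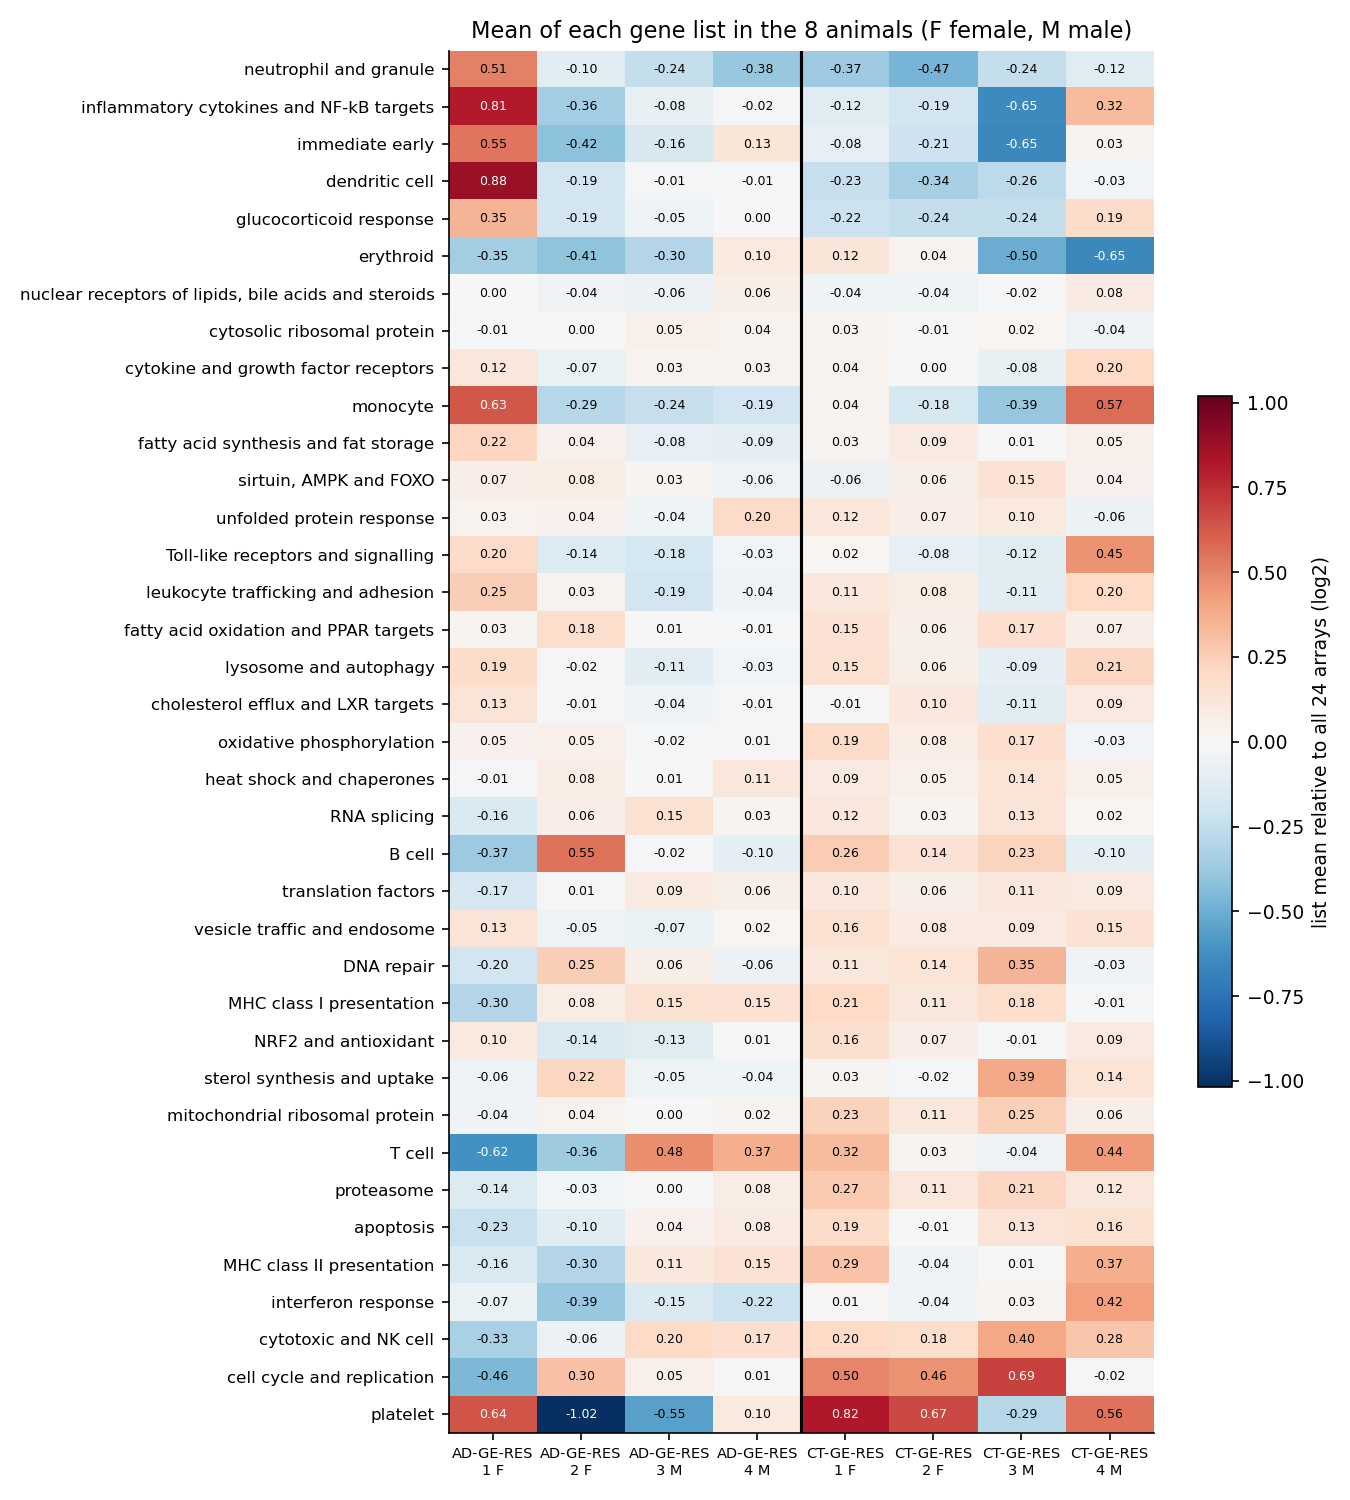
Mean of each of the 37 gene lists (rows, ordered by median difference) in the 8 animals (columns, AD-GE-RES left of the line, CT-GE-RES right of it), in log2 units relative to all 24 arrays. Red is higher and blue lower. AD-GE-RES animal 1 is high for the monocyte (0.63), dendritic cell and inflammatory lists, AD-GE-RES animal 2 is low for the platelet list (-1.02), and the proteasome, mitochondrial ribosomal and interferon response lists are lower in each AD-GE-RES animal than in each CT-GE-RES animal.

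Among the genes with the smallest p, several more were separated between all animals by modest amounts. RPL7L1, a nucleolar homologue of ribosomal protein L7, stood at 8.91, 9.64, 9.42 and 9.60 in AD-GE-RES, against 10.23, 9.93, 9.81 and 9.91 in CT-GE-RES (difference -0.58, SE 0.16). UNC50, a Golgi membrane protein, stood at 8.38, 8.58, 8.45 and 8.31 in AD-GE-RES, against 8.88, 8.71, 8.87 and 8.88 in CT-GE-RES (difference -0.40, SE 0.11). TRA2A, a splicing regulator from a list of which 32 of 51 members were lower (median -0.05), stood at 9.23, 9.30, 9.52 and 9.24 in AD-GE-RES, against 9.02, 8.96, 9.11 and 8.71 in CT-GE-RES (difference 0.37, SE 0.11). ARID2, a subunit of the PBAF chromatin remodeller, stood at 8.30, 8.43, 8.16 and 8.47 in AD-GE-RES, against 7.89, 8.14, 8.0 and 7.78 in CT-GE-RES (difference 0.39, SE 0.13). These 4 genes had groups that did not overlap, as did BTBD3 (0.53) and the adaptor of FGF receptors FRS2 (0.24). SSBP2 (0.43) and PTOV1 (0.44) did so at their brightest probe set only, since the further ones were at -0.09 for SSBP2 and at 0.07 and -0.11 for PTOV1.

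Other genes with a small unadjusted p had groups that overlapped. DNAJB4, an HSP40 co-chaperone, stood at 7.33, 6.29, 6.84 and 7.33 in AD-GE-RES, against 5.94, 6.15, 6.58 and 6.13 in CT-GE-RES (difference 0.74, SE 0.21). TSPAN7, a tetraspanin, stood at 6.54, 6.55, 6.02 and 6.63 in AD-GE-RES, against 6.18, 6.04, 5.64 and 5.64 in CT-GE-RES (difference 0.56, SE 0.14, unadjusted p = 0.000841, adjusted p = 1.00), and it had the smallest unadjusted p on the higher side among the named genes. JAG1, a Notch ligand, differed by 0.53 (SE 0.18, further probe set 0.09), the splicing factor SRSF5 by 0.38 (SE 0.13), the chromatin remodeller CHD6 by 0.42 (SE 0.13, further probe set -0.09) and RASGEF1A, an exchange factor for RAS proteins, by 0.63 (SE 0.20). RASGEF1A was dim, with a CT-GE-RES mean of 3.61 beside the filter limit of 3.57. On the lower side were GMFB, glia maturation factor beta (-0.57, SE 0.17), the cilia and flagella protein CFAP20 (-0.38, SE 0.11) and LOC100157391 (-0.35, SE 0.10). The vesicle traffic list was lower in 31 of 43 members (median -0.10), with the ESCRT-III subunit CHMP5 (-0.40, without overlap) and the Rab GTPase RAB18 (-0.30) among the 3 members with the smallest p.

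The diet difference was then set beside that of the unsupplemented animals, AD against CT, which shares no array with it. AD against CT also gave 0 calls (0%), with 1149 probe sets at an unadjusted p under 0.05 (6.38%). Across the 6033 genes the differences of the supplemented and the unsupplemented pair had Pearson's r of 0.26 and Spearman's rho of 0.18, and 56.5% had the same sign. Genes are not independent replicates, and both pairs vary in the 3'/5' ratio, with AD lower than CT by 0.96 in mean. The slope of each gene on that ratio, taken over the 16 arrays of the other 4 groups, had r of 0.19 and rho of 0.23 with the supplemented difference. With the unsupplemented difference, whose 8 arrays are among those 16, it had r of -0.50 and rho of -0.43. CXCR4 differed by 0.77 with the extract and by 0.91 without it, where AD stood at 11.82 ± 0.75 and CT at 10.91 ± 0.17 (SD, n = 4 each). S1PR1, the sphingosine-1-phosphate receptor that lets lymphocytes leave lymph nodes, differed by 0.30 (SE 0.15) with the extract and 0.69 (SE 0.15) without, and its further probe sets were at 0.42 and 0.46 with the extract.

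OCRL, RUFY1 and XPA, from a panel chosen with earlier results of these data known, had larger gaps without the extract than with it. Such a choice can favour genes with a large gap between AD and CT, so their smaller gap with the extract is no test of the extract. OCRL, a phosphoinositide phosphatase of endosomes, stood at 5.24, 5.20, 5.05 and 5.08 in AD-GE-RES, against 5.13, 5.43, 5.12 and 5.01 in CT-GE-RES (difference -0.03, SE 0.10), and at 5.06 ± 0.04 in AD, against 5.55 ± 0.07 in CT (AD minus CT -0.49). Its further probe set did not show this gap, with AD minus CT at 0.055. RUFY1, an effector of early endosomes, differed by -0.04 (SE 0.13) with the extract and -0.52 without. XPA, the damage-recognition protein of nucleotide excision repair, differed by -0.20 (SE 0.14) with the extract and -0.56 without. ABCA1 had opposite signs, 0.50 with the extract and -0.59 without. FKBP5 differed by -0.16 (SE 0.23) with the extract and 0.47 (SE 0.23) without, and its further probe set by -0.08 (SE 0.18) and 0.86 (SE 0.18). The test of the difference between the pairs called 0 probe sets (0%), with 561 at an unadjusted p under 0.05 (3.12%) and a smallest adjusted p of 1.00. The estimate was 0.46 (SE 0.14) for OCRL (0.12 at its further probe set), 0.47 (SE 0.18) for RUFY1, 1.08 (SE 0.44) for ABCA1, -0.62 (SE 0.33) for FKBP5 (-0.94, SE 0.26, at its further probe set) and -0.14 (SE 0.30) for CXCR4.

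By that test's smallest unadjusted p, the genes whose diet difference was more positive with the extract were SSBP2 (0.59, but -0.59 at its further probe set), the lysosomal beta-galactosidase GLB1 (0.81), the gelatinase MMP2 (0.77), the myosin MYO1C (0.52) and OCRL. MMP2 was dim, with a CT-GE-RES mean of 3.49 beside the filter limit of 3.57. GLB1 stood at 8.45, 8.33, 7.69 and 8.24 in AD-GE-RES, against 7.77, 7.80, 7.61 and 7.94 in CT-GE-RES (difference 0.40), and its difference without the extract was -0.41. Those with a more negative difference were CTLA4 (-0.96), the chemokine receptor CXCR6 (-0.77), LMNB1 (-0.67), the lysosomal sulfamidase SGSH (-0.63, but 0.014, 0.16 and 0.43 at its further probe sets) and the ribosome assembly factor PNO1 (-0.56). LMNB1 differed by 0.02 between AD and CT. The MHC class II and T cell lists, lower with the extract, had medians of 0.28 and 0.31 between AD and CT, with 12 of 16 and 13 of 14 members higher in AD; the difference between the pairs was not tested for lists.

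**Figure D5:**
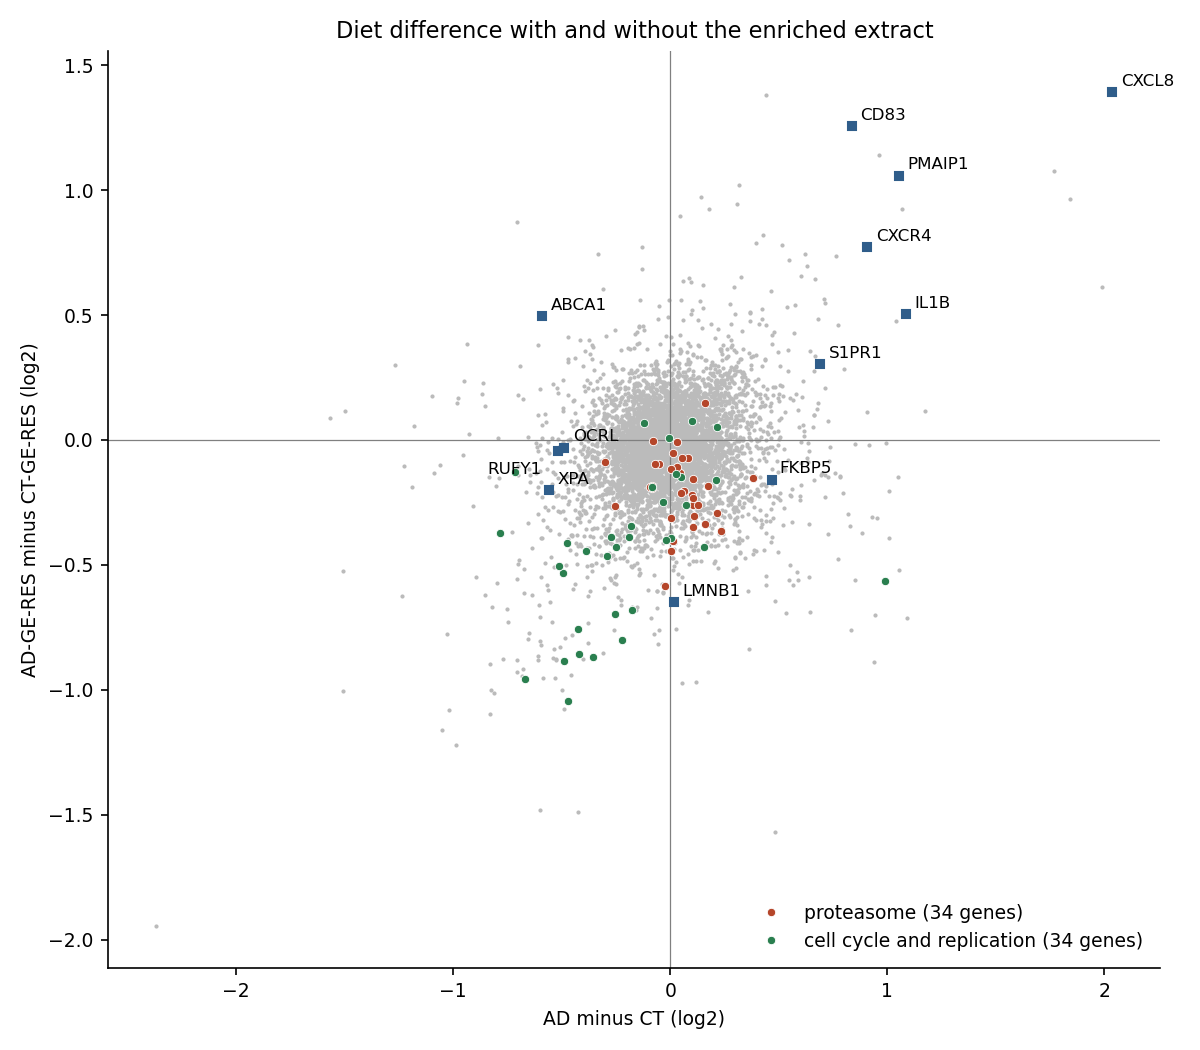
Difference between AD and CT without supplement (horizontal axis, log2) against the difference between AD-GE-RES and CT-GE-RES (vertical axis, log2) for 6033 genes in grey. Proteasome genes are red, cell cycle genes green, and 12 named genes are blue squares. CXCR4 and CXCL8 lie above 0 on both axes, OCRL and RUFY1 lie near 0 on the vertical axis only, and 33 of 34 proteasome genes lie below 0 on the vertical axis.

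The sexes were then compared in their diet difference. With 2 animals of each sex in a group, the test of males against females called 0 probe sets (0%), with 1588 at an unadjusted p under 0.05 (8.82%). Within females 0 probe sets were called (0%), with 1667 at an unadjusted p under 0.05 (9.26%), and within males 0 were called (0%), with 1153 (6.41%). Across the 6033 genes the differences of females and males, which share no array, had r of -0.09 and 49.4% had the same sign. The 3'/5' ratio moved in opposite directions in the sexes, and its part in this was not tested apart from sex. The slope on the ratio had r of 0.30 with the difference in females and -0.08 with that in males. RAB23, a Rab GTPase of the Hedgehog pathway, stood at 6.39 and 5.97 in female and 5.38 and 5.35 in male AD-GE-RES animals, against 5.06 and 5.37 in female and 6.01 and 6.11 in male CT-GE-RES animals. Its difference was 0.97 in females and -0.69 in males, and the adjusted p of the contrast of the sexes was 0.144. PARP9, an interferon-linked ADP-ribosyltransferase (0.30 in females and -0.94 in males), SOCS6 (0.73 and -0.64), VPS18 (0.71 and -0.38, but 0.15 and 0.27 at its further probe set) and NMNAT1 (0.23 and -0.86) had the same order. The opposite order was seen for NTAN1, an N-terminal amidase (-0.60 in females and 0.35 in males), the autophagy protein GABARAPL2 (-0.66 and 0.24), the T cell adaptor LCP2 (-0.57 and 0.24), the hormone gene MLN (-0.41 and 0.39) and PDLIM4 (-0.18 and 0.57, but -0.036 and -0.099 at its further probe set). The proteasome list was lower in both sexes, with 32 of 34 members lower in females (median -0.22) and 26 of 34 in males (median -0.17).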

How the data were processed

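Series-matrix values were used. The authors deposited them as linear intensities on 24123 probe sets; per the submitters' processing notes RMA and GCOS were used, with versions and roles not given in the sources used here. Array medians lay between 38.6 and 41.2, which shows that the arrays were already scaled alike. Values were turned to log2 without further normalization, the 124 control probe sets and the dimmest 25% of the others by mean over all arrays were left out, and 17999 probe sets were tested with limma 3.58.1 in R 4.3.3 (diet group and sex over all 24 arrays, 17 residual and 3.60 prior degrees of freedom). The difference between the sexes came from a fit of 12 groups of diet and sex. Gene symbols came from the platform annotation, with 168 tested probe sets under several symbols and 9291 under none left unnamed; updating through RefSeq changed 0 symbols. The porcine build was not given in the sources used here, so no coordinates are printed. Named genes were the 15 with the smallest p in each direction, the 3 with the smallest p of each list, a panel of 16 genes and the 5 in each direction of the tests between pairs and between sexes; other list members are named from their list, after their values were seen. Gene lists are described by counts and medians only. Groups, members and lists were chosen with earlier results of these data known. On simulated data of the same size, with independent residuals, 13 of 170 calls were false.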

Additional observations from a re-analysis of the deposited data

Results flagged for a closer look

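In the groups of 4 animals, 26 of 380 sets of values (152 genes and 37 lists, with the 3'/5' ratio, in each group) had 1 animal far from the other 3, and chance gives about 1 in 20. AD-GE-RES animal 1 stood apart for CD83 (11.55, the others 8.15 to 8.65), DEFB1 (9.42, the others 8.0 to 8.23), ICAM1 (9.54, the others 7.84 to 8.08) and SOD2 (11.39, the others 10.46 to 10.59) on the high side, and for GATA3 (8.70, the others 9.48 to 9.50), SLA-DQB1 (11.25, the others 11.44 to 11.48) and TMEM126B (6.60, the others 7.33 to 7.47) on the low side. Its means of the monocyte list (0.63, the others -0.29 to -0.19) and the cholesterol efflux list (0.13, the others -0.04 to -0.01) were high. AD-GE-RES animal 2 was low for CXCR4 (10.93, the others 11.90 to 12.05) and BPI (4.58, the others 4.90 to 4.93), and high for RPA3 (10.55, the others 10.05 to 10.13) and the mean of the sterol synthesis list (0.22, the others -0.06 to -0.04). AD-GE-RES animal 3 was low for ATG3 (9.71), NAMPT (7.60) and TSPAN7 (6.02).

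In CT-GE-RES, animal 1 was high for BTK (9.15), NDUFS3 (9.96) and TGFBR1 (9.69). Animal 2 was high for COL4A2 (4.40) and low for UNC50 (8.71). Animal 3 was high for the antimicrobial peptide gene NPG4 (7.66, the others 5.49 to 5.80). Animal 4 was high for AGPAT2 (5.53) and low for POLE2 (5.42), and its means of the interferon list (0.42, the others -0.04 to 0.03) and the glucocorticoid response list (0.19, the others -0.24 to -0.22) were high.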

How the results depend on the processing

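No paired analysis was possible because the labels give pig numbers that are not shared between groups. The number of probe sets called was 0 under the alternatives tried for AD-GE-RES against CT-GE-RES, except when each sex was fitted with the 3'/5' ratio held in the model, an alternative chosen after the data were seen. There, 2 were called in females and 1 in males (an unnamed probe set, -1.44, adjusted p = 0.02). Those in females were a dimmer probe set of GADD45B (difference 1.53, adjusted p = 0.0328) and LOC106504299 (1.66, adjusted p = 0.041). Without the ratio in the model, that GADD45B probe set differed by -0.09 in females and by 0.25 over both sexes. The cause of these calls was not tested. Probe sets with an unadjusted p under 0.05 numbered 810, against 682 to 1244 with 1 animal left out (1244 without AD-GE-RES animal 2), 1667 within females, and 327 when the probe sets of each gene were averaged, which tested 6033 genes. The share of these that were higher in AD-GE-RES was 46.17%, against 55.16% after quantile normalization was repeated, 58.51% with arrays centred on their median, 26.91% with averaged probe sets and 36.52 to 54.74% with 1 animal left out.

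Some gene differences that did not pass the test changed sign; the cause was not tested. Within females BPI was at -0.15, FKBP5 at 0.084, HMGCS1 at 0.29, HNF4A at 0.12, NMNAT1 at 0.23 and RUFY1 at 0.17. Within males CD14 was at 0.11, DEFB1 at -0.31, HMOX1 at -0.58, IRF8 at -0.24, RFXANK at 0.049 and SOD2 at -0.060. Without both AD-GE-RES females, also chosen after the data were seen, CD14 was at 0.27, DEFB1 at -0.20, GZMH at 0.012, HMOX1 at -0.52, ICAM1 at -0.11, IRF8 at -0.037, LCK at 0.0099, SOD2 at -0.050, SPIB at 0.068 and XCR1 at -0.061. Array weights gave -0.27 for HMOX1, 0.081 for SPIB and -0.063 for TNF. The 3'/5' ratio as a covariate gave 0.35 for CD14, cell type means as covariates 0.011 for CD14 and 0.0055 for OCRL, and averaged probe sets 0.071 for OCRL. With 1 animal left out the difference ranged over -0.78 to 0.43 for CD14, -0.45 to 0.023 for CD8A, -0.073 to 0.44 for DEFB1, -0.30 to 0.23 for HMOX1, -0.088 to 0.95 for IL1B, -0.33 to 0.033 for LCK, -0.070 to 0.041 for OCRL, -0.10 to 0.013 for RUFY1, -0.60 to 0.18 for SPIB and -0.13 to 0.46 for TNF.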

Other observations

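Among the 6033 genes, several of the largest differences lay outside the lists and the panel, and they are named here after their values were seen. CCL8, a monocyte-attracting chemokine, differed by -1.57 (SE 0.56, unadjusted p = 0.0109), and SMIM15, a small membrane protein, by -1.95 (SE 1.29). On the higher side AREG, the EGF receptor ligand amphiregulin, differed by 1.14 (SE 0.47), and THBD, the anticoagulant receptor thrombomodulin, by 0.97 (SE 0.36). The adjusted p was 1.00 for these 4 genes.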
